A study of Homo sapiens with 12 samples.

Results

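The transcripts described here encode the complex that writes m6A (N6-methyladenosine, a methyl group added to adenosines of mRNA) and ALKBH5, an enzyme that removes it. They are 8 genes, METTL3, METTL14, WTAP, VIRMA, RBM15, ZC3H13, CBLL1 and ALKBH5. A peak interval was assigned to a gene when it overlapped the gene's hg19 span by at least 1 bp on the same strand, and 124 of the 53502 intervals in the deposited lists did so. Joined where they overlapped between lists, these intervals formed 34 of 20742 regions. The data came from MeRIP-seq, in which fragments of RNA bound by an m6A antibody are sequenced beside an input library. All libraries came from H460, an established line of human large cell lung cancer, labelled as wild-type. The labels describe 12 libraries in 4 groups of 3, which are IP and input of cells treated with 100 nM rapamycin for 24 h to induce autophagy, and IP and input of cells left untreated. Whether replicates were separate cultures is not stated.

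There are 6 peak lists, called A to F here. The deposited record links A, C and E to untreated inputs and B, D and F to untreated IPs, while the list names carry the untreated replicate numbers for A to C and the rapamycin replicate numbers for D to F. Because these sources conflict, no list was placed in a treatment arm, rapamycin was not compared with no treatment, and no test was made. Each list gives 1 value of a measure, without replicates. Medians over all lists pool their intervals, so a region held by several lists enters such a median several times. The lists hold 4530 to 14908 intervals, all of them with a score of 70 or more, and the read depth behind them is unknown. The scale of the authors' score is not given, so each score was turned into its percentile within its own list, where the middle of any list lies at 50. An interval depends on how abundant a transcript is as well as on how much of it is methylated, and these cannot be told apart in the lists. The cell line could not be checked against marker genes, since the lists hold no expression values.

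The writer complex methylates nascent mRNA in the nucleus. METTL3 carries the catalytic site and METTL14, its partner, helps to bind the RNA substrate. WTAP holds the pair together with a regulatory part, in which VIRMA is the scaffold, RBM15 binds RNA, ZC3H13 bridges RBM15 and WTAP and helps to keep the complex in the nucleus, and CBLL1 (HAKAI) is a RING-finger protein. ALKBH5 is a nuclear demethylase that reverses the mark. In human mRNA the mark is known to lie mostly in long internal exons and around the stop codon, often within a GGAC sequence.

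Intervals of RBM15, ALKBH5, METTL14 and ZC3H13 reached to within 15 bp of the 5′ end of the gene, so sequence from the start of each of these transcripts is shown. Each line gives 30 bases of transcribed sequence from the 50 that follow the annotated start, with GGAC in capitals. The lines begin at base 1 after the start for METTL14 and ZC3H13, and were moved to base 21 for RBM15 and base 16 for ALKBH5 so that they hold the matches. The sequences are RefSeq's for GRCh38.p14, another build than that of the lists, and the annotated starts may differ from the ends of the hg19 spans.
RBM15 (chr1:110339397-110339426, plus strand): aattggccaatgaGGACtgcggggcgGGAC
ALKBH5 (chr17:18183843-18183872, plus strand): gagcggcgctggcGGACgtcgggctggctg
METTL14 (chr4:118685392-118685421, plus strand): aagtctctactgaggaaagctatgaggata
ZC3H13 (chr13:46052717-46052746, minus strand): aaacctctgacttccggcggcattttgagg
RBM15 had 2 matches to GGAC in these 50 bases, on the strand with the sense of the RNA, and ALKBH5 had 1. The METTL14 and ZC3H13 windows had none. VIRMA was left out of this step. Of the 8 windows used for the other 7 genes, 2 held GGAC on this strand, 2 held it on the other strand and 4 held it on either. Among all 35116 start windows the shares were 18.9% on the strand with the sense of the RNA, 17.6% on the other strand and 33.5% on either. With so few windows the genes' counts were not compared with these shares, and a match describes the sequence without marking a methylated site.

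ZC3H13 carried the most intervals in every list, METTL3 carried none in any list, and the other genes lay between. Of the 8 genes, 7 had an interval in at least 1 list and 5 had an interval in all lists, namely WTAP, VIRMA, RBM15, ZC3H13 and ALKBH5. List A held 30 intervals on these genes, B held 25, C held 25, D held 13, E held 15 and F held 16. Lists A, B and C are also the longest lists, and as a share of its list the genes' count was 0.249% (A), 0.168% (B), 0.203% (C), 0.269% (D), 0.331% (E) and 0.327% (F). The genes thus took up more of the short lists than of the long ones. ZC3H13 alone made up 41.1% of the 124 intervals. No interval of the opposite strand lay within any of the 8 spans.

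**Figure D1:**
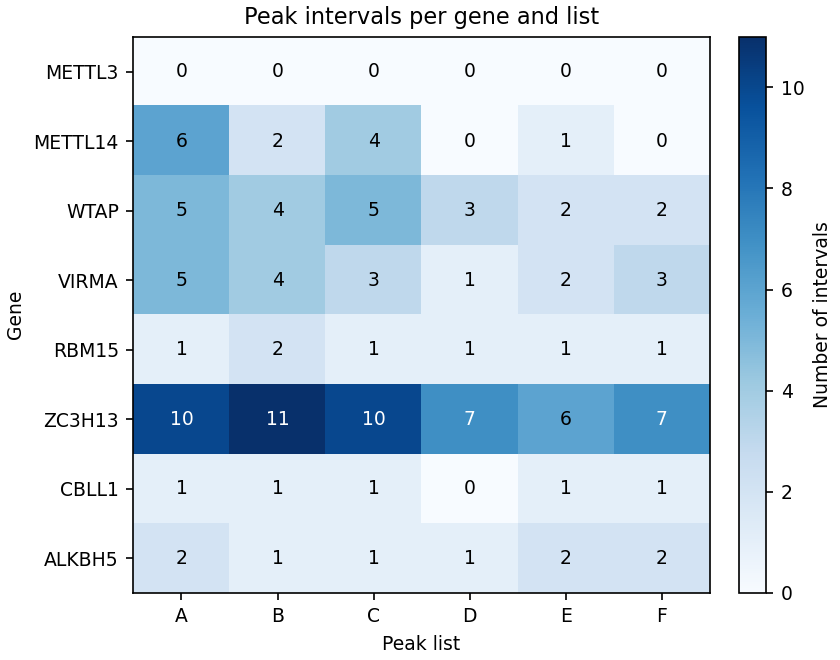
Number of peak intervals on each gene (rows) in each of the 6 lists (columns), with darker blue for higher counts. ZC3H13 has 6 to 11 intervals in each list, METTL3 has 0 throughout, and METTL14 runs from 6 in list A to 0 in lists D and F.

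Of the 34 regions on these genes, 10 were held by all lists, which is 29.4%, whereas 8.30% of all regions in the series were. Without ZC3H13 it was 4 of 21 regions, or 19.0%. Regions found in a single list numbered 7, or 20.6%, against 36.9% of all regions. Wide regions are shared more often, and the genes' regions were compared by width for that reason. Of the genes' regions under 200 bp, 1 of 13 was in all lists, and in the rest of the series 186 of 6192 were. From 200 bp to under 500 bp the count was 4 of 11, against 5.17% in the rest. From 500 bp to under 1000 bp it was 2 of 4, against 9.98%, and from 1000 bp upward it was 3 of 6, against 16.1%. The genes' share was therefore above that of the rest in each width class, from small counts that rest largely on ZC3H13. Without that gene the counts, from the narrowest class to the widest, were 0 of 8, 2 of 7, 0 of 1 and 2 of 5. No region on these genes was found in D, E or F without also being in A, B or C. In the whole lists 93.6% of the regions of D, 92.1% of those of E and 87.8% of those of F were also in A, B or C.

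METTL3 (chromosome 14, 21966282 to 21979517, minus strand) had no interval in any list on either strand, and none within 1 kb of its span. Below the span the closest interval ended 66.3 kb away in lists A, B, C and D and 69.9 kb away in F, on the minus strand, and list E held none below it on this chromosome. Above the span the closest interval began 11.2 to 11.3 kb away in A, B and C, also on the minus strand, 1100 kb away in D and F and 1369 kb away in E. The running numbers in the peak names skipped 10 (A), 12 (B), 10 (C), 156 (D) and 166 (F) between these neighbours. What the skipped numbers stand for was not tested. In the RefSeq annotation METTL3 overlaps TOX4.

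METTL14 (chromosome 4, 119606523 to 119632812, plus strand) had 6 intervals (A), 2 (B), 4 (C), 1 (E) and none in D or F. They formed 6 regions. The region held by most lists was the one at the 3′ end, from 119631153 to 119632768, which ended 44 bp before the end of the span. It was in A, B, C and E, at score percentiles of 60.2 (A), 60.1 (B), 33.3 (C) and 54.5 (E). Its start was the same in these 4 lists, while its end differed in each, giving widths of 1343 bp (A), 1382 bp (B), 1616 bp (C) and 1310 bp (E). The next region towards the 5′ side, 211 bp wide from 119626766, was held by A, B and C at percentiles of 14.7, 22.3 and 41.8. The remaining 4 regions were 88 to 231 bp wide and were found in A alone or in A and C. The first of these began 2 bp from the 5′ end of the span. No METTL14 interval stood above the 65.4th percentile of its list, so the gene had middle and low scores throughout.

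WTAP, the adaptor, lies on chromosome 6 from 160146617 to 160177351 (plus strand) and carried 5 regions. Its first region, from 160148030 to 160148365 and 1413 bp from the 5′ end, was in all lists. Its percentile was 81.6 (A), 78.7 (B), 57.8 (C), 14.3 (D), 35.4 (E) and 59.4 (F), so that A and B were high, C and F near the middle and D and E low. The region at the 3′ end, from 160176060 to 160177347, ranked above the first region in B, C and D and below it in A, with percentiles of 72.1 (A), 83.4 (B), 84.3 (C) and 62.8 (D). It was missing from E and F. Its width was 1288 bp (A), reaching to 4 bp from the end of the span, and 681 bp (B), 700 bp (C) and 679 bp (D). A region of 56 bp from 160160022 recurred with the same ends in A, B, C, E and F, at percentiles from 24.6 to 53.0. The other 2 regions were each in 3 lists, and the wider of them, from 160173930 to 160174646, was in A, B and C at percentiles of 18.6, 14.6 and 11.0. In the RefSeq annotation WTAP overlaps SOD2. Intervals carry a strand, but the sources used here do not say whether the libraries kept strand, so reads of overlapping genes may not have been separated.

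VIRMA, the scaffold, spans 65.8 kb of chromosome 8 (95499921 to 95565757, minus strand), and its 5 regions covered 2.20% of it. The region in all lists ran from 95531213 to 95531704, in the middle of the gene and 34.1 kb from its 5′ end. It had the same ends in all lists. Its percentile was 50.1 (A), 45.2 (B), 64.3 (C), 82.1 (D), 79.5 (E) and 37.2 (F). Here D and E were the highest, unlike at the shared WTAP region, where they were the lowest. A region from 95541298 to 95541570 was in all lists but D, at percentiles of 88.0 (A), 64.9 (B), 59.3 (C), 22.0 (E) and 63.9 (F). The 3′ most region, from 95500695 to 95501088 and 774 bp from the end of the span, was in A, B and F. It stood at percentiles of 36.2 (A), 48.0 (B) and 1.7 (F), just above the lowest score that list F holds. The 2 regions nearest the 5′ end were seen in A, B and C and in A alone.

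CBLL1, the RING-finger subunit, had a single region in its 17.8 kb span (chromosome 7, 107384279 to 107402083, plus strand). The region began at 107398588 in each of the lists A, B, C, E and F and was missing from D. Its percentile was 71.2 (A), 82.1 (B), 74.7 (C), 4.4 (E) and 47.2 (F). It was 1372 bp wide in A, E and F, 1350 bp (B) and 2617 bp (C), where it reached to 879 bp from the end of the span. It thus lay in the 3′ part of the gene, as the widest regions of METTL14 and WTAP did. The RefSeq annotation places CBLL1-AS1 over part of the gene, and the span held no interval of the opposite strand.

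RBM15, the RNA-binding subunit, had the widest region of the 8 genes. The gene lies on chromosome 1 from 110881945 to 110889303 (plus strand), and its first region, held by all lists, reached from the 5′ end of the span to at most 110885312. The start was the same in all lists. The width was 3368 bp in A, B, C and F, 3268 bp in D and 3159 bp in E. The percentile was 95.4 (A), 93.9 (B), 94.8 (C), 46.0 (D), 96.1 (E) and 88.1 (F). RBM15 was therefore among the highest scoring intervals of A, B, C and E and a middling one in D. Scores in B and C were 3100, the value at which many scores pile up and at which intervals cannot be ranked against one another. A second region of 374 bp at the 3′ end of the span, from 110888930, was in B alone at the 85.9th percentile. In list B the RBM15 regions together covered 3.742 kb, and the 2 regions took up 50.8% of the span, more than in any of the other genes, where the share was 0% to 14.7%.

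**Figure D2:**
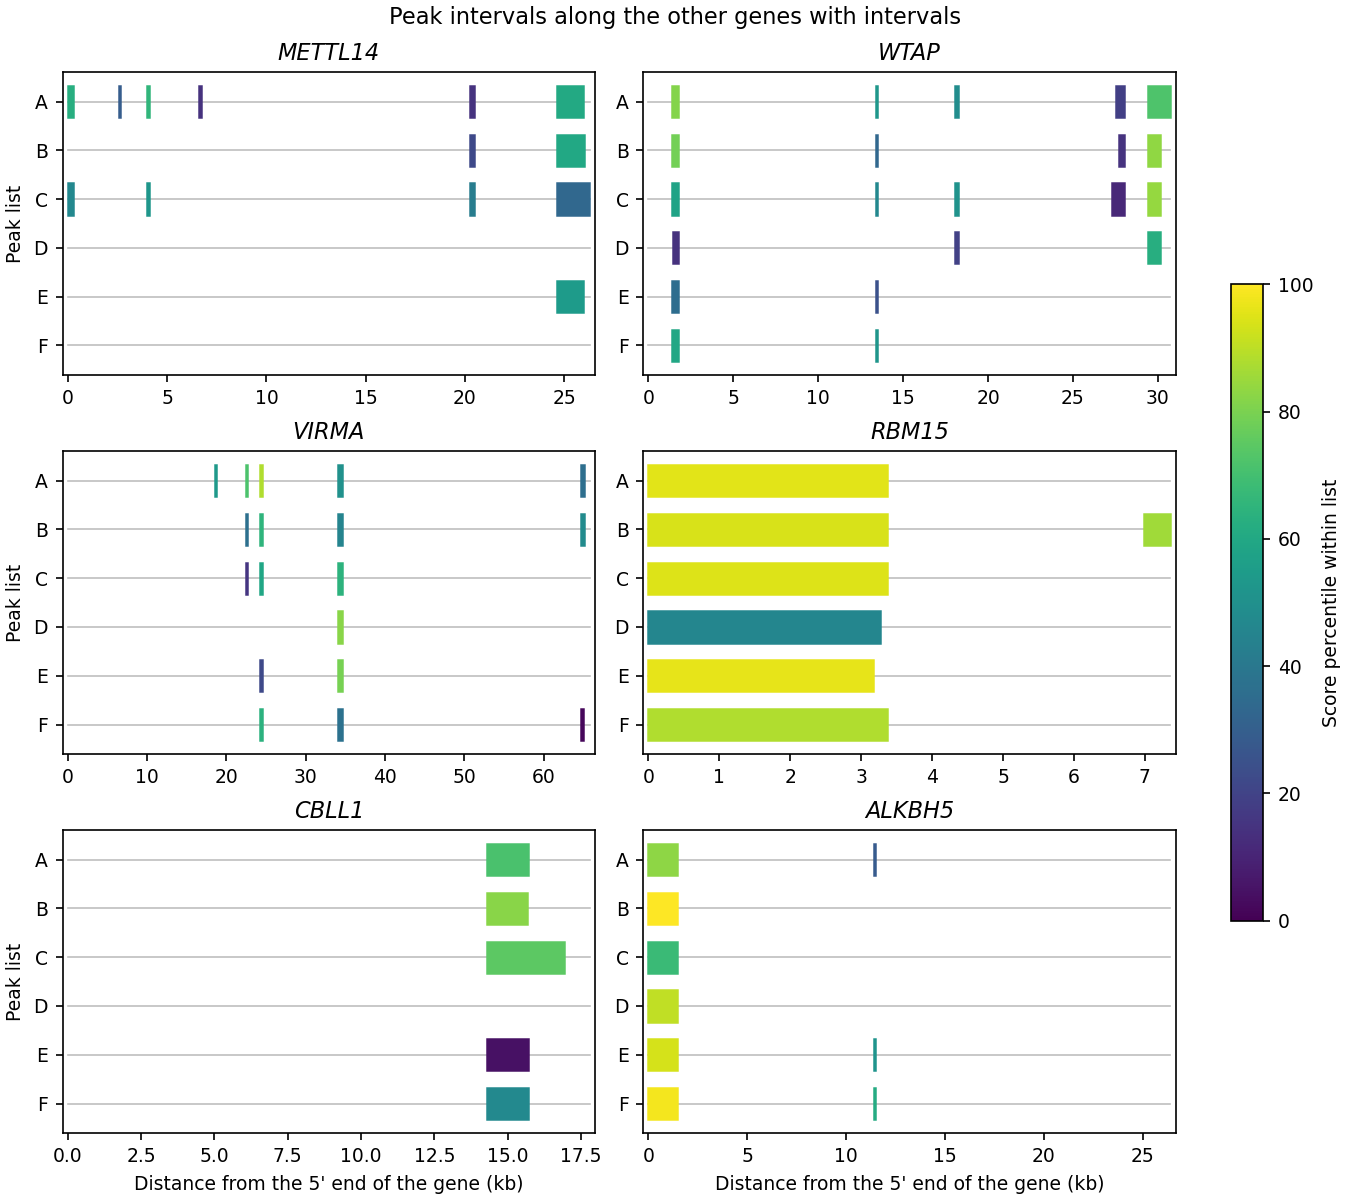
Peak intervals of lists A to F along 6 genes, drawn to scale as distance from the gene's 5′ end in kb, with a thin outline that keeps narrow intervals visible; colour gives the score percentile within the list. RBM15 and ALKBH5 have their shared interval at the 5′ end, METTL14, WTAP and CBLL1 have their widest interval towards the 3′ end, and VIRMA has its shared interval of 492 bp in the middle.

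ZC3H13, the bridging zinc-finger protein, had 10 intervals (A), 11 (B), 10 (C), 7 (D), 6 (E) and 7 (F). Its span runs over 98.3 kb of chromosome 13 (46528601 to 46626896, minus strand) and held 13 regions that covered 5.36% of it. Of these, 6 were in all lists. They lay side by side between 46541639 and 46563232, from 63.7 kb after the 5′ end to 13.0 kb before the 3′ end. Each of the 6 had the same start and the same end in all lists, with widths of 192 to 1224 bp.

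Read in the direction of transcription, the first of the 6 regions (46562922 to 46563232) had percentiles of 88.1 (A), 85.5 (B), 88.0 (C), 45.5 (D), 78.9 (E) and 56.9 (F). It had the lowest score of the 6 in every list. The second (46559432 to 46559896) stood at 93.2 (A), 93.9 (B), 94.8 (C), 83.6 (D), 84.9 (E) and 92.1 (F). The third (46553948 to 46554139), only 192 bp wide, stood at 92.7 (A), 93.9 (B), 89.5 (C), 96.5 (D), 89.2 (E) and 94.4 (F). Both later regions varied less between lists than the first.

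The fourth region (46549418 to 46549973) had percentiles of 92.2 (A), 93.9 (B), 94.8 (C), 96.7 (D), 85.5 (E) and 94.9 (F). The fifth (46542883 to 46544106), the widest of the 6, had 95.3 (A), 93.9 (B), 88.8 (C), 89.0 (D), 87.7 (E) and 98.6 (F). The sixth (46541639 to 46542163) had 95.0 (A), 93.9 (B), 94.8 (C), 98.0 (D), 91.5 (E) and 90.3 (F), and was above the 90th percentile of every list. The last 5 regions were therefore above the 83rd percentile throughout. In list B their scores were all 3100, so their order within that list cannot be read.

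A seventh region upstream of this run (46577274 to 46577471) was missing only from E and had percentiles of 87.7 (A), 73.6 (B), 79.7 (C), 63.9 (D) and 77.8 (F). The remaining 6 regions were found in A, B or C alone or in combination, at percentiles of 14.2 to 70.2. Among them was an interval of 343 bp in B that began 15 bp from the 5′ end of the gene. Lists D, E and F thus held the run and little else of this gene.

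How the ZC3H13 run compared with others depended on the gap allowed between regions. When regions in all lists were chained on a strand across gaps of up to 10 kb, a limit chosen after the ZC3H13 intervals had been seen, they formed 1547 chains, 90.8% of them of a single region. The ZC3H13 chain of 6 regions over 21.6 kb was the longest, and 3 chains had 5 regions. With gaps of up to 20 kb the series held 3 chains of 6 regions and with 50 kb it held 4, with none longer. With 5 kb the ZC3H13 run broke up and its longest piece had 2 regions, since its widest gap is 5311 bp. At that limit 87 chains had at least 2 regions, and the longest, elsewhere, had 5. The number of exons in a gene was not used here.

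**Figure D3:**
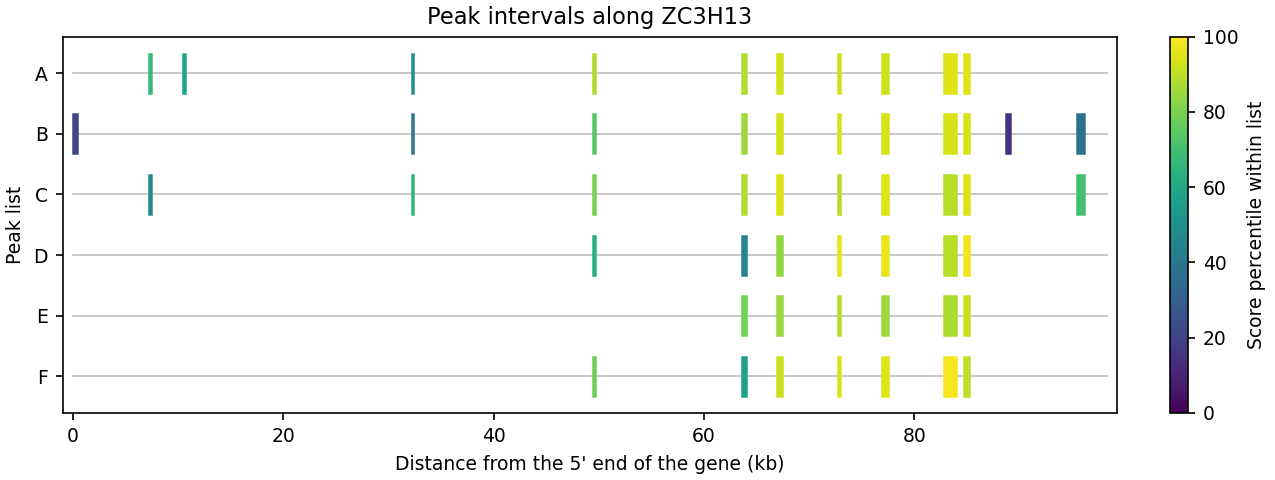
Peak intervals of lists A to F along ZC3H13, drawn to scale as distance from the gene's 5′ end in kb, with a thin outline that keeps narrow intervals visible; colour gives the score percentile within the list. The 6 regions between 63.7 and 85.3 kb appear in every list, and the intervals outside them are mostly from lists A, B and C.

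ALKBH5, the demethylase, lies on chromosome 17 from 18086867 to 18113268 (plus strand). Its first region ran from the 5′ end of the span to 18088327, 1461 bp with the same ends in all lists. It stood at percentiles of 83.1 (A), 99.9 (B), 67.7 (C), 90.5 (D), 93.7 (E) and 98.1 (F). It was thus above the middle of every list, lowest in C, and its median percentile of 92.1 was close to those of the ZC3H13 run and of RBM15. In B its score of 3199.07 lay above the pile-up at 3100, and whether such scores mark stronger peaks is not known. A second region of 81 bp, from 18098269 to 18098349, had the same ends in A, E and F, at percentiles of 28.4, 51.9 and 61.3. It was absent from B, the longest list, and present in E, the shortest. No interval lay in the last 14.9 kb of the gene.

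Together the 10 regions in all lists fell on 5 genes, with 6 on ZC3H13 and 1 each on WTAP, VIRMA, RBM15 and ALKBH5. Their median percentiles formed a higher set, 82.2 to 94.3 for ZC3H13, RBM15 and ALKBH5, and a lower pair, 58.6 for WTAP and 57.2 for VIRMA. The top value of 94.3 was the same at RBM15 region 1 and at ZC3H13 regions 9 and 11. It lies midway between the tied percentiles of scores of 3100 in B and C, so it does not rank these regions. The spread between lists was wide for several of the 10 regions, from 14.3 to 81.6 at WTAP and from 46.0 to 96.1 at RBM15. List D gave the lowest percentile at WTAP, RBM15 and the first 2 regions of the ZC3H13 run, and the highest at VIRMA and at 3 regions of that run. Over all intervals of the genes the median percentile was 68.9, and 54.5 without ZC3H13. Scores at or above 3100 were seen in 11 of the 124 intervals, or 8.87%, against 6.78% of all intervals. Of these 11, 8 were on ZC3H13, 2 on RBM15 and 1 on ALKBH5, 7 of them in B and 4 in C.

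**Figure D4:**
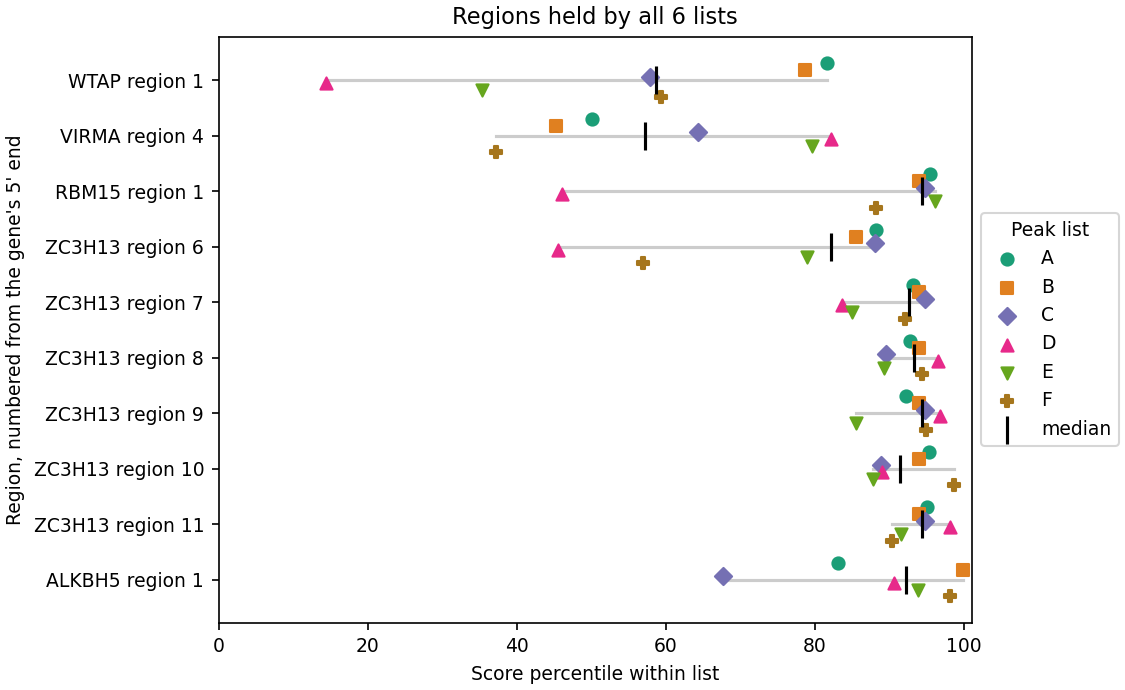
Score percentile within each list (horizontal axis) of the 10 regions that all 6 lists hold, numbered from the 5′ end of each gene; coloured markers are the lists and are offset vertically to keep them apart, the grey line spans their range and the black bar is the median. The ZC3H13 regions 7 to 11 lie above 83 in every list, whereas WTAP region 1 runs from 14.3 to 81.6.

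Intervals on the genes were narrower than others of the same list. Their median width was 252 bp (A), 382 bp (B), 336 bp (C), 492 bp (D), 492 bp (E) and 400.5 bp (F), against 453, 526, 631, 820, 831 and 627 bp for the rest of lists A to F in turn. By gene, the median width over all lists was 211 bp (METTL14), 336 bp (WTAP), 297.5 bp (VIRMA) and 465 bp (ZC3H13). It was 3368 bp (RBM15), 1461 bp (ALKBH5) and 1372 bp (CBLL1), which is above the medians of the rest in every list. The genes' regions recurred with equal ends about as often as elsewhere. Of the 27 regions in 2 or more lists, 18 (66.7%) had both ends equal in all lists that held them, against 57.4% in the rest of the series. At least 1 end was equal in all 27, against 93.3% in the rest. Whether these shared ends are exon boundaries was not tested, because no transcript annotation of hg19 was used.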

How the data were processed

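The authors' deposited files are 6 peak lists in hg19 whose 6 columns give the position, strand, name and score of each peak. HISAT2 2.0.4 was among the tools, per the submitters' processing notes. Peak names have the form that MACS gives, per the file contents. The sources used here do not give the caller's version and settings, and they conflict on the libraries behind a list. The score that the authors deposited for each peak has no stated scale. It was used only to rank intervals within a list and as a common minimum. Ribosomal RNA was depleted before library construction, per the labels' protocols.

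Positions are written 1-based. Intervals of different lists were joined into regions when they shared at least 1 bp on a strand. Score percentiles use the mean rank of ties. All 8 genes are named, and within a gene the region in most lists is given in full. Genes and measures were chosen with earlier results of these data known. No difference between lists or genes was tested. Alternatives were either strand, a minimum score, equal list lengths, longer spans, stricter overlap and leaving out each list; the gap limit of the chains and the share without ZC3H13 were added after seeing the data. Gene starts came from the RefSeq table of GRCh38.p14. They were used for 7 of the 8 genes, since start windows on chromosome 8, where VIRMA lies, were left out. Only names were taken for overlapping genes. Python 3.11.15 was used with numpy 2.4.6, pandas 2.3.3 and scipy 1.17.1. The overlap code was tested on simulated lists. With depth unknown, neither a counting error nor a detection limit could be set for the peaks.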

Additional observations from a re-analysis of the deposited data

How the results depend on the processing

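Counting either strand, lengthening the spans by 1 kb and asking for at least 50% of an interval within the span changed none of the values computed under them. Limiting the lists to scores at or above the pooled median of 260.435 removes weak intervals by construction. This cut falls at unlike ranks in the lists. Scores near it were 264.47 at the 53.0th percentile of A, 255.67 at the 40.5th of B and 240.56 at the 63.9th of F. How much the counts under the cut owe to this was not tested. The cut left 85 of the 124 intervals on the genes, 6 of the 10 regions in all lists and 2 of the 5 genes with an interval in all lists. With every list cut to its best 4530 intervals, 87 intervals, 8 regions in all lists and 4 such genes were left. METTL14 had 13 intervals as deposited, 6 at the minimum score and 3 at equal length; WTAP had 21, 10 and 12, VIRMA 18, 10 and 8, and CBLL1 5, 3 and 5 in the same order. The counts of RBM15, ZC3H13 and ALKBH5 moved by no more than 1.5 times under either. With each list left out in turn, the genes had 94 to 111 intervals, 30 to 34 regions, 10 to 13 regions in all remaining lists and 5 to 6 genes with an interval in all of them. Both last counts were highest without D. A reciprocal overlap of 50% kept 10 regions. The median width was 378 bp as deposited and 492 bp both at the minimum score and at equal length, and the median percentile was 68.5 at equal length. The share of regions in all lists was 29.4%, and 19.0% without ZC3H13. No paired analysis was possible because no list was placed in a treatment arm. The lists' unknown depth leaves it unsettled whether a region missing from a list was absent or undetected.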

Other observations

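Peak names carry a running number, and some numbers are skipped between the first and last interval of a gene. What the skipped numbers stand for was not tested. For ZC3H13, lists D, E and F skipped 1, 1 and 0 numbers between the ends of the gene's intervals, and lists A, B and C skipped 6, 10 and 9. For WTAP, list A skipped 3 numbers, B 3, C 1, D 4, E 2 and F 0. Between the ALKBH5 intervals of A, E and F no number was skipped.

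Interval counts on the 8 genes fell apart into 2 sets of lists, with 30 (A), 25 (B) and 25 (C) in the longer lists, and 13 (D), 15 (E) and 16 (F) in the shorter. The bases covered did so too, at 15.9 kb (A), 15.9 kb (B) and 16.8 kb (C) as opposed to 9.83 kb (D), 11.8 kb (E) and 11.2 kb (F). The whole lists split the same way, covering 9.84 Mb (A), 12.2 Mb (B), 11.7 Mb (C), 5.40 Mb (D), 4.84 Mb (E) and 4.77 Mb (F). As a share of these bases the genes took up 0.162% (A), 0.130% (B), 0.144% (C), 0.182% (D), 0.244% (E) and 0.236% (F). The genes' regions private to a list did not split this way, since 4 were private to A and 3 to B, and none to C, D, E or F. These counts are small. Among all regions of each list the private share did split this way. It was 17.2% (A), 22.9% (B) and 11.5% (C), and no more than 9.09% in D, E and F. Which treatment these lists represent is not settled by any of these values.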
